A study of Mus musculus with 8 samples.

Results

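The genes described here run the mitotic switch: the cyclins and kinases that carry a cell into mitosis, and the anaphase-promoting complex (APC/C), the ubiquitin ligase that takes it out again. The set holds 41 genes of the 18193 named genes on the array. They are 31 genes listed by name and the 10 single gene symbols of the platform annotation that begin with Anapc. They were measured in germinal centre B cells of C57BL/6 mice, sorted as B220+CD38-CD95+ cells from lymph nodes 12 days after subcutaneous immunization with the hapten-carrier conjugate NP-KLH in alum. Total RNA from 4 light zone and 4 dark zone samples was hybridised to 1 Affymetrix array each, all from the same strain, tissue and immunization, so the sorted zone is the only difference the labels give. The labels call the samples biological replicates but do not say whether a sample was 1 mouse or a pool, so p-values measure the spread between these samples.

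The labels give the light zone gate as CXCR4hi/CD83lo and the dark zone gate as CXCR4lo/CD83hi, the reverse of common usage. The mRNA went the other way: Cd83 intensity was 7158 to 7631 in arrays titled light zone and 1363 to 1624 in those titled dark zone, and Cxcr4 was 758 to 854 and 1418 to 1677. Groups follow the titles throughout. The 9 germinal centre B cell markers on the array all passed the intensity filter, and their summed intensity was 22456 to 23155 in the light zone and 24049 to 24814 in the dark zone. The B cell gene Ms4a1 (CD20) lay between 9750.3 and 10603 over the 8 arrays, while Pax5, the B lineage transcription factor, was at 184 to 317. Of the 9, Gcsam (1.48) and S1pr2 (0.26) were higher in the dark zone on the log2 scale, Fas (-0.23) was lower, and 6 did not pass (limma). The median intensity per array was 27.3 to 28.1, and no 2 arrays held identical values. The values are intensities from RMA (robust multi-array average, which corrects background, equalises the arrays' distributions and summarises probes), so they have no read depth and their precision rests on the number of arrays.

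Entry into mitosis depends on cyclin-dependent kinase 1 (Cdk1), which needs a B-type or A-type cyclin as partner. The kinases Wee1 and Pkmyt1 hold it inactive by phosphorylation, and the Cdc25 phosphatases release it. Polo and Aurora kinases then drive centrosome, spindle and kinetochore assembly. The APC/C, activated first by Cdc20 and later by Fzr1 (Cdh1), marks cyclins and securin for destruction, which frees separase to cut the cohesin that joins sister chromatids. In the germinal centre the dark zone is classically the site of B cell division, and the light zone the site of selection by antigen and T cell help.

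Most of the mitotic regulators were higher in the dark zone, and the subunits of the APC/C itself differed less than the other members. All 41 genes were bright enough to test. The dark zone was higher for 29 (limma, adjusted p under 0.05 over 10547 genes), 2 were lower, Wee1 and Cdc26, and 10 did not pass. Over all tested genes 43.9% passed by the same rule, 19.1% higher and 24.8% lower. The median difference, dark zone minus light zone on the log2 scale, was 0.31 over the 41 genes and -0.01 over all tested genes. In 29 of the 41 every dark zone array lay above every light zone array, against 18.1% of all tested genes, and in 1 the reverse held, against 23.2%. A rise of at least 1.5-fold was reached by 14 members (3.86% of all tested genes) and of at least 2-fold by 8 (1.17%): Nek2, Ccnb2, Cdc20, Plk1, Aurka, Ube2c, Cdc25c and Cdc25b. These counts use the brightest probe set of each gene. Under 2-fold were Aurka with averaged probe sets (0.90) and Cdc25b at its lowest with 1 array left out (0.97). In a bulk sample, more cells in mitosis and more of the members' transcripts per cell cannot be told apart.

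**Figure D1:**
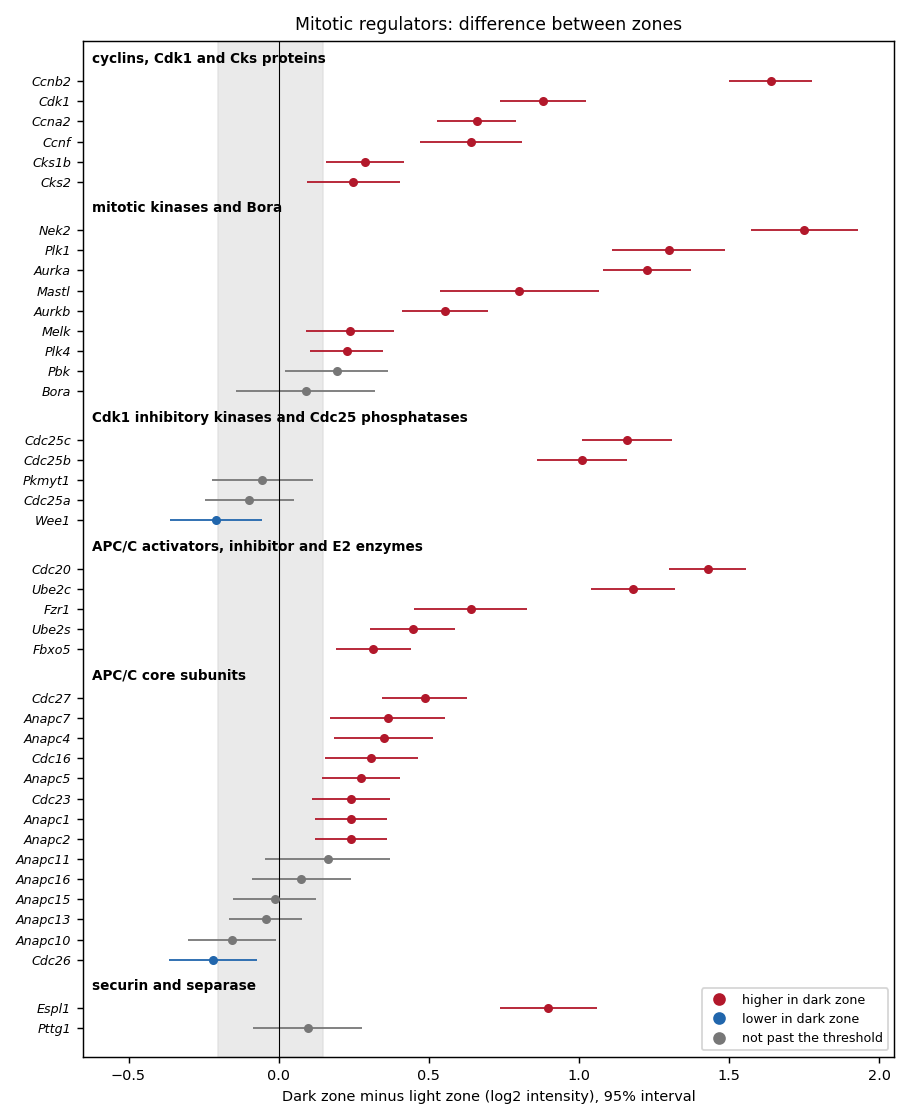
Difference between zones (dark zone minus light zone, log2 intensity) for each of the 41 genes, grouped by role, with its 95% interval from limma. Red points were higher in the dark zone, blue points lower, and grey points did not pass; the grey band spans the middle of all tested genes, from the lower quartile at -0.20 to the upper quartile at 0.15. The APC/C core subunits lie between -0.22 and 0.49, whereas cyclins, kinases, Cdc25 phosphatases and APC/C activators reach up to 1.75.

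The promoters of the members that rose at least 2-fold are shown because these genes moved together. Genes of late cell cycle phases are known to be controlled through CCAAT boxes, bound by the factor NF-Y, and through the cell cycle genes homology region (CHR), bound by the MuvB core of the DREAM and MYB-MuvB complexes. RefSeq promoter windows (build GRCm38.p6, 250 bases before to 50 after the annotated start) matched 33 of the 41 genes. Ccna2, Aurkb, Bora, Pbk, Wee1, Pkmyt1, Cdc25c and Cdc23 had no match. Each stretch below is the 150 bases before the start, 5′ to 3′ on the gene's strand. Capitals mark CCAAT (or ATTGG on the other strand) and the CHR letters TTTGAA (or TTCAAA).
Nek2, chr1:191821323-191821472, plus strand: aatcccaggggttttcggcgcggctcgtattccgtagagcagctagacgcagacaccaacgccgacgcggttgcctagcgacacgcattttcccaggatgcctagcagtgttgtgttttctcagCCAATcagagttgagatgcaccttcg
Ccnb2, chr9:70421555-70421704, minus strand: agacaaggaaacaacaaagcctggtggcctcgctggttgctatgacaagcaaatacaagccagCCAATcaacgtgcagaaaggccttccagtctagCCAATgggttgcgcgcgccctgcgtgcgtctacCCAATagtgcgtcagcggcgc
Cdc20, chr4:118437344-118437493, minus strand: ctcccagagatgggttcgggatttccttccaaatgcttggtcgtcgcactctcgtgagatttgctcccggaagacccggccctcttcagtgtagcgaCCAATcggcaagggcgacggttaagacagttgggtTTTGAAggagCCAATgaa
Plk1, chr7:122159285-122159434, plus strand: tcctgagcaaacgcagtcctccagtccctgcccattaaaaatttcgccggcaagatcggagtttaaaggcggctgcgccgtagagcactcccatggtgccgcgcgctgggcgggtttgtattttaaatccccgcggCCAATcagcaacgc
Aurka, chr2:172370571-172370720, minus strand: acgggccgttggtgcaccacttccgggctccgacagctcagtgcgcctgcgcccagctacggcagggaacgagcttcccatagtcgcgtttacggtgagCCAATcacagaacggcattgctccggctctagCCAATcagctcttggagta
Ube2c, chr2:164769779-164769928, plus strand: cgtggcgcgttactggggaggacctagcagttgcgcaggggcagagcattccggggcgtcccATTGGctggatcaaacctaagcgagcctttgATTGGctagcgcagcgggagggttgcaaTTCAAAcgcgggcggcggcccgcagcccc
Cdc25b, chr2:131186798-131186947, plus strand: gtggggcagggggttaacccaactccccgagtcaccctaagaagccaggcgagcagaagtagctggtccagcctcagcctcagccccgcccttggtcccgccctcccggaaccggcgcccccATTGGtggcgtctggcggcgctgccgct

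All 7 of these large risers with a window held a CCAAT box within it, against 39.0% of the windows of 8572 tested genes (37.9% of 27025 windows in all), and 5 of the 7 held at least 2, against 15.3%. The boxes of Ccnb2 began 87, 54 and 21 bases before the start, 33 bases apart. Those of Aurka began 51 and 19 bases before it, 32 apart, and Ube2c had pairs 31 apart on either strand. Pairs of CCAAT boxes on 1 strand with 28 to 36 bases between their first bases, a range chosen after these promoters were seen, were also counted. Such a pair was found in 9 of the 33 members with a window and in 3.1% of tested genes' windows. The 9 were the large risers Aurka, Ccnb2, Nek2 and Ube2c, and also Anapc5, Cdc27, Cdk1, Cks2 and Fbxo5, which rose less. The CHR letters were in 5 of the 7, against 11.7% of tested genes' windows (18.1% of all windows), and over roles they were in 10 of the 20 members outside the APC/C core and in 2 of its 13 core subunits with a window. CCAAT boxes were in 16 of those 20 and in 4 of the 13. An E2F-type motif, TTCCCGC (or GCGGGAA), was found only in the Plk4 window, against 8.77% of tested genes' windows (4.66% of all). Only these exact letters were searched, so E2F sites with other letters were not counted and the members cannot be said to lack them. Members with small differences held such letters too: Cks1b had 4 CCAAT boxes and 2 CHR matches, Cdc25a had 2 CCAAT boxes, and Anapc10 and Anapc11 had 1 each, while Pttg1 had no match. These matches describe letters in a window and were not tested for binding.

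**Figure D2:**
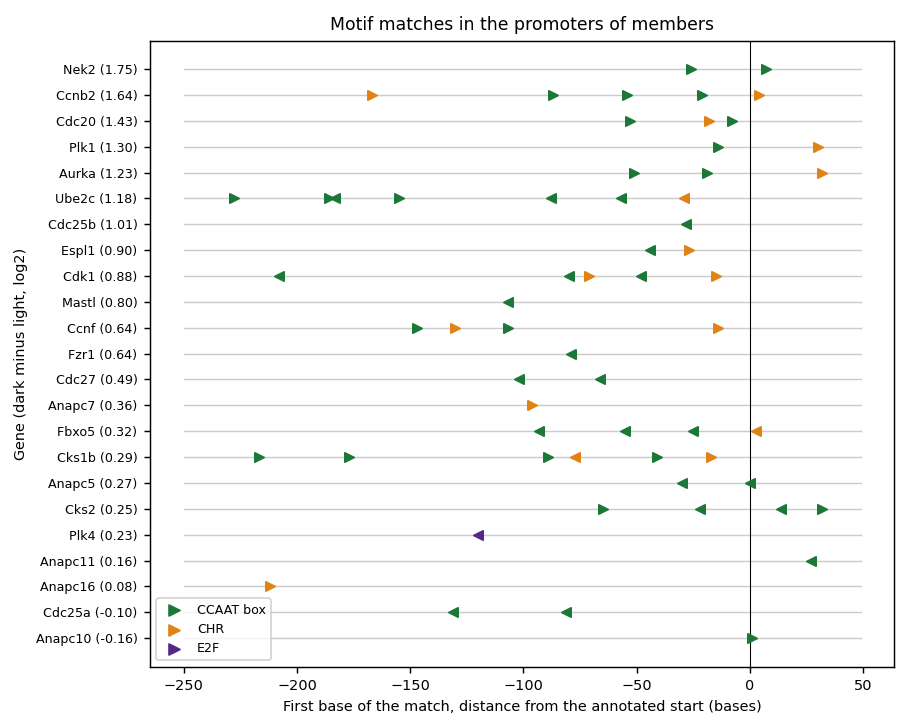
Matches to the CCAAT box, CHR and E2F-type motifs in the promoter windows of the members that hold any, with the distance in bases of each match's first base from the annotated start on the x axis and the strand shown by the arrow's direction. Genes are ordered by their difference between zones, given in brackets. The row of Ccnb2 shows CCAAT boxes at 87, 54 and 21 bases before the start, and that of Ube2c shows pairs on either strand.

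All 6 genes of the cyclin and Cdk1 core rose in the dark zone, by unequal amounts, against 19.1% of all tested genes. Cyclin B2 (Ccnb2), a mitotic partner of Cdk1, had intensities of 978, 977, 955 and 899 in light zone samples against 2878, 3110.0, 3115 and 2760.1 in dark zone samples. The zones did not come near each other, and the log2 difference was 1.64 (SE 0.06, limma adjusted p = 3.7e-09), the 31st highest of 10547 genes. Cyclin A2 (Ccna2), which acts in S phase and G2, read 1699, 1614, 1717 and 1563 in the light zone and 2624, 2676, 2669.6 and 2446 in the dark zone, a clear but smaller separation with a difference of 0.66 (SE 0.06). Cdk1 itself stood at 1016, 956, 1041 and 899 in light zone samples against 1829, 1765, 1885 and 1709.9 in dark zone samples, also without overlap, a difference of 0.88 (SE 0.07, limma adjusted p = 6.4e-07). Cyclin F (Ccnf), the substrate receptor of an SCF ubiquitin ligase, rose by 0.64 (SE 0.08), with 139 to 163 in the light zone and 209.8 to 252 in the dark zone. The Cks proteins, small docking subunits of Cdk complexes, changed least: Cks1b rose by 0.29 (SE 0.06, limma adjusted p = 0.0019) and Cks2 by 0.25 (SE 0.07, limma adjusted p = 0.013). Their probe sets are bright, with Cks2 between 4984 and 5776 in the light zone and between 5907 and 6807 in the dark zone, and the arrays of the zones did not overlap.

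Among the mitotic kinases, Nek2, Plk1 and Aurka rose most. Nek2, which separates the centrosomes at the start of mitosis, had intensities of 469.9, 434, 488 and 384 in the light zone and 1543, 1537, 1521 and 1354 in the dark zone, and every dark zone array was far above the light zone range. Its difference was 1.75 (SE 0.08, limma adjusted p = 1.5e-08), the highest of the 41 genes by the brightest probe set. Averaged over its probe sets, 1 of them below the filter level, Nek2 was at 1.11, under Ccnb2 at 1.64. Polo-like kinase 1 (Plk1) measured 425, 415, 444 and 364 in light zone samples against 987, 1151, 1027 and 894 in dark zone samples, a difference of 1.30 (SE 0.09, limma adjusted p = 2.3e-07). Aurora A (Aurka), the spindle pole kinase that activates Plk1, gave 281, 309, 279 and 262 in the light zone and 652, 655, 705 and 632 in the dark zone, with every dark zone array above every light zone array and a difference of 1.23 (SE 0.07). A dimmer probe set of Aurka, with a mean intensity of 36.8, gave 0.57, and the mean of both gave 0.90. Aurora B (Aurkb), the kinase of the chromosomal passenger complex, showed a rise of 0.55 (SE 0.07) with 620.3 to 685 in the light zone and 892 to 1028 in the dark zone. A second probe set of Aurkb, nearly as bright (706 against 796), gave 0.32 with overlapping zones (limma adjusted p over all probe sets = 0.022).

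Mastl (Greatwall), which restrains the phosphatase PP2A-B55 during mitosis, rose by 0.80 (SE 0.12) at low intensities of 93.7, 105, 87.7 and 82.5 in light zone samples against 142, 181, 194 and 131 in dark zone samples. Plk4, the kinase that licenses centriole duplication, rose by 0.23 (SE 0.06), and Melk, a kinase of dividing cells, by 0.24 (SE 0.07, limma adjusted p = 0.013). Dimmer probe sets of Plk4, with mean intensities of 487 and 324, gave 0.22 and 0.51 (limma adjusted p over all probe sets = 0.045 and 2.0e-04). The size of its rise thus depends on the probe set. Pbk, a mitotic kinase also called TOPK, did not pass, with a difference of 0.19 (95% interval 0.02 to 0.36, limma adjusted p = 0.065). It passed with the replicate number as a block (limma adjusted p = 0.027), with a trended robust variance (0.032), and when dark zone replicate 2 or replicate 4 was left out (0.047 and 0.046). Bora, the cofactor through which Aurora A activates Plk1, had overlapping zones, 319.6 to 440.2 and 341 to 434, and a difference of 0.09 (95% interval -0.14 to 0.32). A second probe set of Bora, with mean intensity 286 against 369 for the brightest, gave 0.55 and passed (limma adjusted p over all probe sets = 7.8e-05), and the mean of both gave 0.32 (limma adjusted p = 0.0012), so the value for Bora depends on the probe set.

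**Figure D3:**
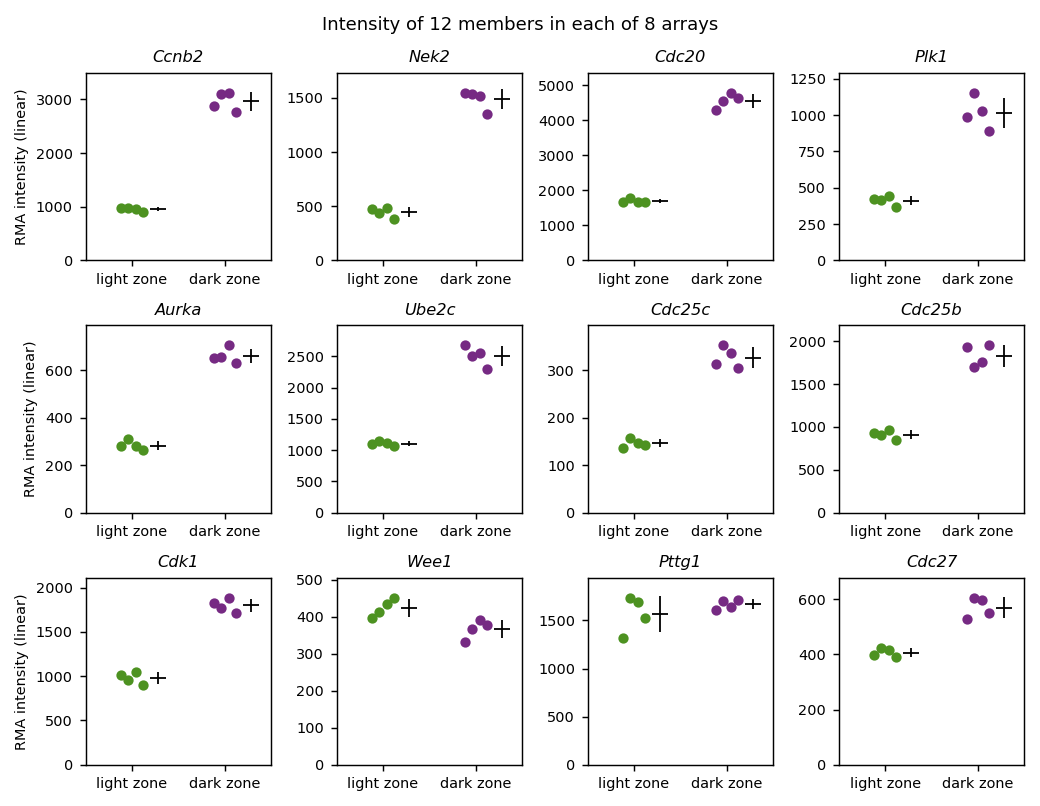
RMA intensity on a linear scale in each of the 8 arrays for 12 members, with light zone arrays in green, dark zone arrays in purple, and the mean and SD of each zone as a black bar. Dark zone points lie above all light zone points in every panel except Pttg1, where the zones overlap, and Wee1, where they lie below (331 to 391 against 396 to 451).

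Of the 5 kinases and phosphatases that set the inhibitory phosphorylation of Cdk1, Cdc25b and Cdc25c rose, Wee1 was lower, and Cdc25a and Pkmyt1 did not pass. Cdc25c measured 137, 157, 147 and 142 in the light zone and 312, 352, 336 and 304 in the dark zone, a difference of 1.16 (SE 0.07, limma adjusted p = 9.4e-08), and Cdc25b measured 924, 908, 965 and 846 in light zone samples against 1934, 1695, 1755 and 1952 in dark zone samples, a difference of 1.01 (SE 0.07, limma adjusted p = 2.9e-07). Both are phosphatases that activate Cdk1 at mitotic entry, and neither gene's zones overlapped. Cdc25a, which also acts at the entry into S phase, did not pass, at -0.10 (95% interval -0.25 to 0.05). Wee1 was lower in the dark zone, at 396, 413, 435 and 451 in the light zone and 331, 368, 391 and 377 in the dark zone, a difference of -0.21 (SE 0.07, limma adjusted p = 0.029). The zones of Wee1 were next to each other without overlap, and its call was lost when light zone replicate 3 or 4 was left out (limma adjusted p = 0.072 and 0.082), or replicate 1 or 2 of the dark zone (0.076 and 0.055). A dimmer probe set of Wee1 gave 0.25 and did not pass (limma adjusted p over all probe sets = 0.067), and the mean of both gave 0.02, which turns the direction. Pkmyt1, the membrane-bound kinase with the same target as Wee1, did not pass at -0.05 (95% interval -0.22 to 0.11). Its second probe set, of similar brightness (183 against 195), gave -0.36 and passed (limma adjusted p over all probe sets = 0.0019), as did the mean of both at -0.21 (limma adjusted p = 0.020).

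All 5 regulators that switch the APC/C on or off, or supply its ubiquitin, rose in the dark zone, against 19.1% of all tested genes. The activator Cdc20, which turns the complex on at metaphase, had intensities of 1662, 1786, 1667 and 1660.0 in light zone samples against 4291, 4545, 4766 and 4630.0 in dark zone samples. The rise of 1.43 (SE 0.06, limma adjusted p = 5.8e-09) ranked 49th of 10547 genes. Fzr1, the activator of late mitosis and G1, measured 131, 167, 138 and 136 in the light zone and 229, 229, 235 and 197 in the dark zone, with the zones apart and a difference of 0.64 (SE 0.09). Ube2c, the enzyme that starts ubiquitin chains on APC/C substrates, gave 1095, 1149.8, 1110.4 and 1058 in light zone samples against 2673, 2498, 2553 and 2289 in dark zone samples, a difference of 1.18 (SE 0.06, limma adjusted p = 4.5e-08). Ube2s, which elongates those chains, rose by 0.45 (SE 0.06), and the inhibitor Fbxo5 (Emi1), which keeps the complex off until mitosis, by 0.32 (SE 0.06, limma adjusted p = 8.5e-04).

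The core subunits of the APC/C were closer between zones than the other members. Of 14, 8 were higher in the dark zone (57.1%, against 19.1% of all tested genes), 1 was lower and 5 did not pass. Their median difference was 0.24, against 0.64 for the other 27 members and -0.01 for all tested genes. None rose by 1.5-fold or more by its brightest probe set. A dimmer probe set of Cdc27 (0.66) and 1 of Anapc5 (1.18) exceeded that fold, while the other dimmer ones of Cdc27 gave 0.41 and 0.36. Cdc27, a subunit that the activators bind, rose most: 397, 422, 417 and 389.7 in the light zone and 527, 606, 597 and 549.8 in the dark zone, without overlap, a difference of 0.49 (SE 0.06, limma adjusted p = 8.1e-05). Next were Anapc7 (0.36, SE 0.09), Anapc4 (0.35, SE 0.08) and Cdc16 (0.31, SE 0.07). Cdc16, Cdc23, Cdc27 and Anapc7 belong to the arm of repeated helices that holds the activator, while Anapc1, Anapc4 and Anapc5 form the platform beneath it. In the catalytic module, the cullin Anapc2 rose by 0.24 (SE 0.05), and the RING subunit Anapc11, which recruits the ubiquitin enzyme, did not pass at 0.16 (95% interval -0.05 to 0.37). The remaining subunits that rose were Anapc5 (0.27), Cdc23 (0.24) and Anapc1 (0.24). Anapc10, which helps bind substrates, did not pass at -0.16 (95% interval -0.30 to -0.01), nor did the small subunits Anapc13 (-0.04), Anapc15 (-0.01) and Anapc16 (0.08). Cdc26, a small subunit that stabilises Cdc16, was the only core subunit called lower, at 820.4, 810.5, 722 and 856 in light zone samples against 678, 733, 676 and 668 in dark zone samples, a difference of -0.22 (SE 0.07, limma adjusted p = 0.02). Its zones overlapped, and the call was lost without light zone replicate 4 (limma adjusted p = 0.060) and when its probe sets were averaged (-0.12, limma adjusted p = 0.24). The call of Cdc16 was lost among probe sets of the unique type (0.21, limma adjusted p = 0.070).

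Securin and separase, the last step of the pathway, differed from each other. Separase (Espl1), the protease that cuts cohesin, measured 234, 204, 254 and 243 in the light zone and 446, 413, 455 and 424 in the dark zone, a difference of 0.90 (SE 0.07, limma adjusted p = 1.5e-06). Securin (Pttg1), its inhibitor and an APC/C substrate, measured 1322, 1737, 1692 and 1526 in light zone samples against 1611, 1707, 1640.0 and 1717 in dark zone samples. The dark zone arrays of Pttg1 lay within the light zone range, and its difference was 0.10 (95% interval -0.09 to 0.28, limma adjusted p = 0.38). Its other 2 probe sets, with mean intensities of 439 and 115, gave -0.07 and -0.16, and neither passed, so the sign of the small difference depends on the probe set. The upper end of the interval, 0.28, is of the brightest probe set only and lies under a 1.5-fold rise.

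Whether related members changed unequally was tested in 10 pairs, by a two-sided exact permutation test of the within-array log2 ratio over the 70 arrangements of 4 against 4 arrays, whose smallest p is 0.0286 (0.0408 after Benjamini-Hochberg adjustment over these pairs). For 7 pairs the ratios of the zones did not overlap and the test gave that smallest value. The adjusted 0.0408 holds because these 7 share the smallest p. How often other gene pairs separate was not measured. Among single tested genes the zones lay apart with the dark zone above in 18.1% and with the light zone above in 23.2%. Cyclin B2 rose by 0.98 more than cyclin A2, Aurka by 0.67 more than Aurkb, and Plk1 by 1.07 more than Plk4. These sizes are of the brightest probe sets. Over the 9 alternatives run for pairs, Aurka minus Aurkb ran from 0.46 to 0.72 and Plk1 minus Plk4 from 0.98 to 1.11. Cdc25b exceeded Cdc25a by 1.11, Cdc20 exceeded Fzr1 by 0.79 and Ube2c exceeded Ube2s by 0.73. Securin was below separase by this measure, at -0.80. The other 3 pairs were not separated: Cks2 against Cks1b at -0.04 (exact p = 0.629), Cdc25b against Cdc25c at -0.15 (exact p = 0.257, adjusted 0.317) and Pkmyt1 against Wee1 at 0.15 (exact p = 0.286, adjusted 0.317), which turned to -0.22 when probe sets were averaged. With 4 arrays a zone these 3 results do not show equal change.

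Most members were measured by several probe sets, and those generally went the same way. There were 94 probe sets for the 41 genes, and 29 genes had more than 1. Of the 53 beyond the brightest of each gene, 10 were below the intensity filter, and 35 of the other 43 had the sign of the brightest. For the members called higher, 27 such probe sets were above the filter level. Of these, 22 were also higher (limma adjusted over all 45037 probe sets) and 5 did not pass. The 5 belong to Anapc1, Anapc5 and Cdc16, all core subunits of the APC/C. No other probe set of Anapc1 above the filter level passed, with values of 0.08, 0.26 and -0.01. The 3 probe sets of Cdc20 gave 1.43, 1.51 and 1.46. The brightest and second probe sets of Nek2 gave 1.75 and 1.81, and another, near the filter level at an intensity of 28.9, gave 0.85. The Nek2 probe set below the filter, at an intensity of 19.2, gave 0.03. A dim probe set of Anapc5, with a mean intensity of 95.7, gave 1.18 (limma adjusted p over all probe sets = 1.5e-07), while the other 5 of that gene gave 0.17 to 0.37. The brightest probe set of 17 members is of a type, marked by letters in its name, that can also detect related transcripts.

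**Figure D4:**
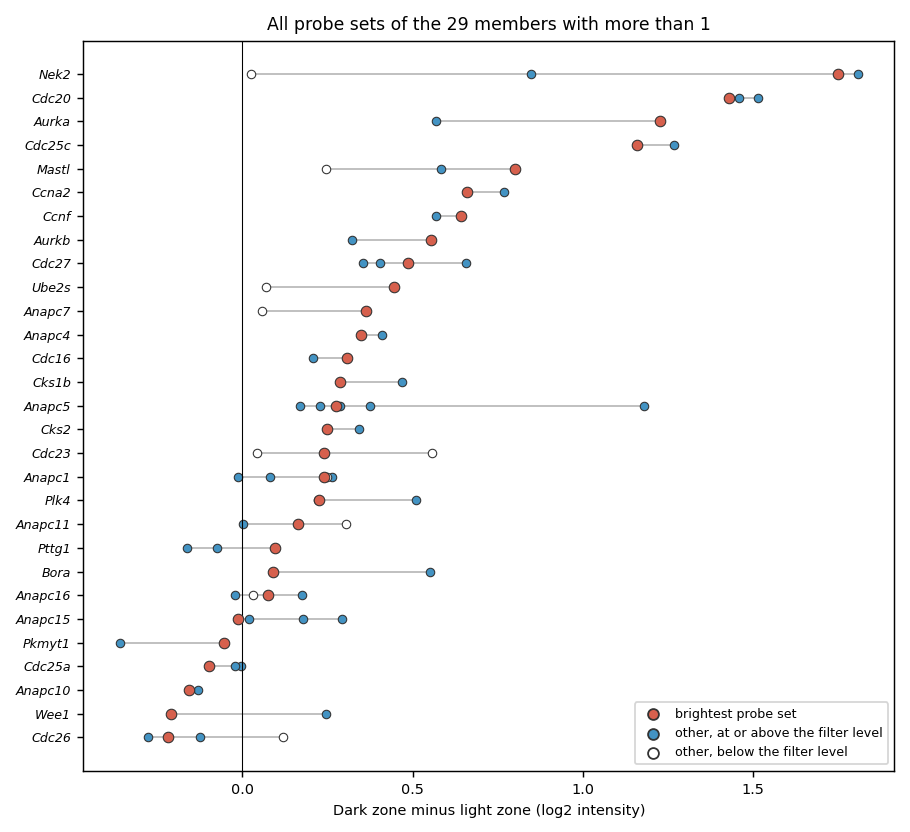
Difference between zones (dark zone minus light zone, log2 intensity) of each probe set of the 29 members with more than 1, with the brightest in red, others at or above the intensity filter in blue, and others below it in white. Probe sets of Cdc20, Cdc25c and Ccna2 lie close together, while those of Nek2, Aurka, Bora, Pkmyt1, Wee1 and Anapc5, among others, spread. Those of Anapc5 run from 0.17 to 1.18, and those of Nek2 from 0.03, below the filter, to 1.81.

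Other genes of the same machinery, in lists chosen with earlier results of these data known, also moved mainly upward. The background is 19.1% higher and 24.8% lower over all tested genes. Of 19 tested genes of the spindle checkpoint and kinetochore, 18 were higher in the dark zone and 1 did not pass, with a median of 0.74. They included the kinetochore protein Cenpf (1.60, SE 0.07), the cohesin protector Sgo2a (1.20, SE 0.08), the centromeric histone Cenpa (1.05, SE 0.06) and the kinetochore motor Cenpe (1.04, SE 0.10). Of 20 genes of mitotic kinesins, spindle and cytokinesis, 19 were higher and 1 did not pass, with a median of 0.91, led by Kif20a (1.96), the spindle protein Hmmr (1.41), the microtubule depolymerase Kif2c (1.32) and Ckap2 (1.20). Among 19 further substrates, partners and transcription factors of the switch, 15 were higher and 1 lower, with a median of 0.38. Cdc14b, a phosphatase that removes Cdk phosphates, rose by 1.79 (SE 0.07), and the condensin subunits Ncapd2 and Ncapg rose by 1.07 and 1.02. Cdca3, which promotes destruction of Wee1, rose by 0.95, or by 0.36 with averaged probe sets. Mybl2 (B-Myb), the transcription factor that activates mitotic genes with MuvB, was lower, at -0.39 (SE 0.05, limma adjusted p = 1.1e-04).

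In the lists that follow, 19.1% higher and 24.8% lower over all tested genes is again the background. Of 12 genes of the phosphatases opposed to Cdk1 and their inhibitors, 6 were higher and 1 lower, with a median of 0.18. The PP2A regulatory subunits Ppp2r5c and Ppp2r2d rose by 0.48 and 0.34, the PP1 inhibitor Ppp1r2 by 0.37 and the catalytic subunit Ppp2cb by 0.28, while Arpp19, the PP2A-B55 inhibitor that Mastl activates, was lower at -0.26. The value of Ppp2r5c was 0.15 (limma adjusted p = 0.11) with unique-type probe sets, and that of Arpp19 was -0.03 (limma adjusted p = 0.65) with averaged probe sets. In the SCF ubiquitin ligase, the other large ligase of the cell cycle, 1 of 12 genes was higher and 2 were lower, with a median of -0.05, both shares under that background: the receptor Fbxw11 at 0.15, and Fbxo4 and Fbxw7 at -0.53 and -0.41. The call of Fbxw11 was lost under most alternatives, among them leaving out any array but dark zone replicate 1 (limma adjusted p = 0.054 to 0.12). Among 28 replication and G1/S genes, 10 were higher (35.7%) and 3 lower, with a median of 0.09; the 13 called make a share near the 43.9% called over all tested genes. Pola1, a polymerase alpha subunit, rose by 0.65 and the ligase Lig1 by 0.38, while thymidylate synthase (Tyms, -0.45), thymidine kinase (Tk1, -0.34) and Orc1 (-0.16) were lower. Leaving out 1 array ended the call of Orc1, except for replicate 2 of either zone (limma adjusted p = 0.052 to 0.097), and Tyms was at -0.06 (limma adjusted p = 0.44) with averaged probe sets. The general proliferation markers Mki67 and Top2a rose by 0.53 and 0.57.

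**Figure D5:**
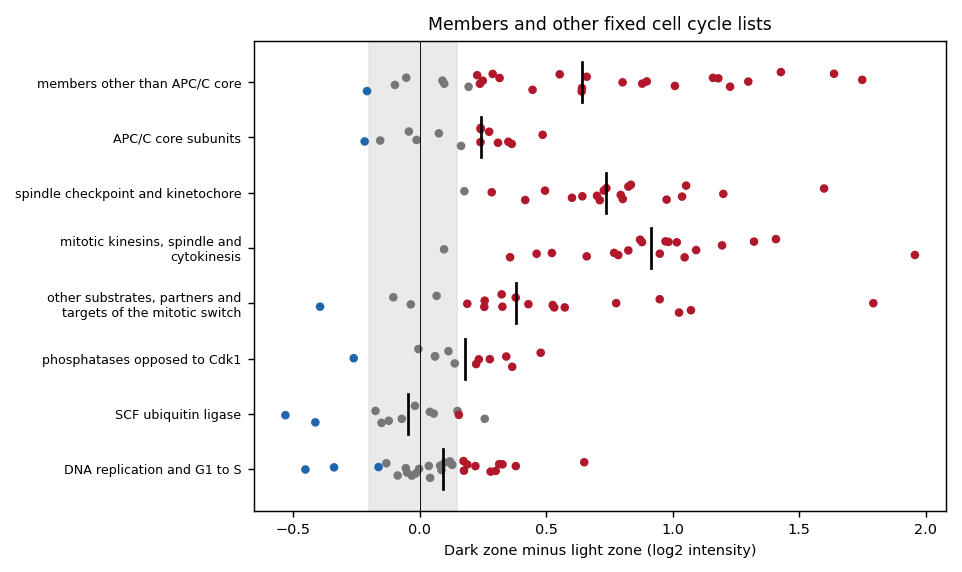
Difference between zones (dark zone minus light zone, log2 intensity) of each tested gene in the members, split into the APC/C core and the rest, and in the 6 comparison lists, with the median of each as a black line and colours for calls as in the plot of differences by role. The grey band spans the quartiles of all tested genes, and the medians run from 0.91 for mitotic kinesins and spindle genes to -0.05 for the SCF ligase.

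Markers of other cell types that a sort could carry over differed in level and direction. Of the 9 T cell markers on the array, 4 passed the intensity filter. The summed intensity of all 9 was 273 to 296 in the light zone and 253 to 263 in the dark zone. Cd3g was below the filter, at 9.42 to 12.0 in all arrays, while Cd3e and Cd4 passed it. Cd3e was at 35.9 to 40.7 in the light zone and 34.96 to 40.66 in the dark zone, and Cd4 at 33.8 to 37.4 and 37.03 to 43.9. Lat, a T cell signalling adaptor, was lower in the dark zone, at -0.52 on the log2 scale (limma adjusted p = 9.4e-05), and the other 3 tested did not pass. The 10 macrophage and monocyte markers, 4 of them above the filter, summed to 267 to 320.2 in the light zone and 357 to 1094 in the dark zone. The higher dark zone sums lay mainly in Lyz2, at 37.7 to 89.1 and 128 to 824, while the other 9 summed to 224 to 236 and 229 to 269.7. Lyz2 (2.98) and Csf1r (0.40, limma adjusted p = 0.023) were higher in the dark zone, and Cd68 (-0.40, limma adjusted p = 0.0039) was lower. Lyz2 was highest in dark zone replicate 4 but above the light zone range in every dark zone array, so leaving out 1 array does not remove it. Without dark zone replicate 4, 30 of the 41 members were higher in the dark zone, against 1914 of 10547 tested genes. The 5 dendritic cell markers summed to 661 to 768 and 630.4 to 853, mostly from Flt3 at 537 to 657 and 503 to 740.2, and the 5 follicular dendritic and stromal markers to 159.8 to 228 and 160.3 to 168. Plasma cell markers gave 10766 to 12083 and 11732 to 12276, mostly from Jchain and Xbp1, while Sdc1, which defines plasma cells, was at 29.8 to 36.6 and 30.0 to 31.8. Irf4 and Prdm1, transcription factors of plasma cell differentiation, were lower in the dark zone. Irf4 was at 218 to 262 and 53.7 to 68.9 (-2.03, limma adjusted p = 7.4e-09), and Prdm1 at 37.1 to 51.5 and 14.6 to 20.5 (-1.37, limma adjusted p = 2.4e-06). Jchain, the joining chain of secreted antibody, was higher (0.15, limma adjusted p = 0.049). The 2 erythroid markers on the array summed to 23.2 to 25.1 and 25.3 to 30.5. The part of any of these cells in the differences above was not tested.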

How the data were processed

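The authors deposited 1 table of 8 arrays and 45037 probe sets, each value a linear intensity. RMA is the method named per the submitters' processing notes, with its version not given in the sources used here. Values were put on the log2 scale with no pseudocount, since every value is above 0. RMA gives the arrays nearly the same distribution, which hides any change in the total RNA of a cell, and it compresses the folds of dim genes. Gene names came from the platform annotation (34945 with 1 symbol, 932 with several and 9160 unnamed here; nothing was named from several symbols). A gene is its probe set with the highest mean log2 value, and was tested where this was at or above the 50th percentile over probe sets, an intensity of 27.8, which left 10547 of 18193 genes. Zones were compared with limma 3.58.1 in R 4.3.3 (lmFit, eBayes, two-sided, Benjamini-Hochberg); the pipeline was tested on simulated data. Every member is named; other lists give up to 4 genes with the largest called differences and those called against the rest. Members and lists were chosen with earlier results of these data known, so no list was tested as a set. The alternatives tried were other filters, averaged or unique-type probe sets, centring, renewed quantile normalization, trended variance, array weights, a replicate block, a stricter threshold and leaving out each array. Figures used matplotlib 3.10.9 in Python 3.11.15.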

Additional observations from a re-analysis of the deposited data

Results flagged for a closer look

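In 7 of the 82 sets of 4 arrays examined (41 genes in each zone), 1 array stood far from the other 3 by Dixon's gap test at the 95% level, in which the gap to the nearest array is divided by the whole range of the zone; chance flags about 1 in 20. Dark zone replicate 4 was the lowest for Nek2 (gap 0.886 of the range, 1354 against 1521 to 1543) and Fzr1 (0.850, 197 against 229 to 235). Light zone replicate 2 was the highest for Cdc20 (0.940, 1786 against 1660.0 to 1667). Light zone replicate 3 was the highest for Cdc16 (0.836, 536 against 484 to 493) and light zone replicate 1 for Anapc7 (0.906, 413 against 398 to 399). Dark zone replicate 2 was the highest for Cdc26 (0.848, 733 against 668 to 678), and dark zone replicate 1 the lowest for Anapc4 (0.905, 463 against 528 to 536). None of these gaps reaches the other zone's range except that of Cdc26, whose dark zone replicate 2 lies above the lowest light zone array, 722.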

How the results depend on the processing

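Across 18 alternatives the members higher in the dark zone numbered 23 to 30, and 29 to 30 when 1 array was left out. The 23 came from unique-type probe sets, an alternative chosen after seeing the data, in which 34 members were tested instead of 41. Its lower count thus partly reflects fewer tested members. Of the 31 called members, 26 kept direction and call in every alternative run; Cks2, Melk, Wee1, Cdc16 and Cdc26 did not. With averaged probe sets neither Wee1 nor Cdc26 was called lower and the count of 1 is Pkmyt1; the count was 0 at an adjusted p of 0.01, and 0 to 2 without 1 array. Among the members outside the core the lower count was 0 at 0.01 and 0 to 1 without 1 array, and in the core 0 with averaged probe sets, 0 at 0.01 and 0 to 1 without 1 array. At 0.01, 1316 of all tested genes were higher. The phosphatase list had 3 higher of 9 tested with unique-type probe sets and 0 lower with averaged ones, and the replication list 1 lower with averaged ones. The SCF list had 0 higher with no filter, with median centring, with renewed quantile normalization, at 0.01 and with unique-type probe sets, 2 with the 60th percentile filter or a trended robust variance, and 0 to 1 without 1 array. With averaged probe sets Wee1 turned to 0.018, Pttg1 to -0.047, Anapc15 to 0.12 and Pkmyt1 minus Wee1 to -0.22. Pttg1 was -0.16 with unique-type probe sets. With 1 array left out, Anapc15 ran from -0.042 to 0.020 and Cks2 minus Cks1b from -0.10 to 0.0098. In these cases the cause was not tested.

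The deviations of same-numbered arrays from the zone means correlated at 0.126, 0.189, 0.0596 and 0.243 for replicates 1 to 4, and the arrays correlated best with their own number except for replicate 3. Pairing was taken as shown only if all 4 passed 0.1, so it was not used, and the data hint at it without settling it. With the replicate number as a block, 30 members were higher, Pbk being the one added, and 2 lower. Within replicate numbers the pair test cannot go below 0.125, and with 1 array left out not below 0.0571, so those pair tests were not run. All 7 separated pairs kept their direction in the 9 alternatives run for pairs. Precision rests on 4 arrays a zone; of the 41 members the SE was largest for Mastl, 0.12.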
